A study of Mus musculus with 38 samples.

Results

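How the renal response to FGF23 differed between healthy mice and mice with anti-GBM disease, a nephritis directed at the glomerular basement membrane, was described from bulk RNA-Seq of 14 kidneys, which are 14 of the 38 libraries of the series. The libraries were chosen by their labels alone, as all those of the anti-GBM experiment, and no measured value was used to choose them. They fell into 4 groups: 4 healthy mice given vehicle (NTS1 to NTS4), 3 healthy mice given FGF23 (NTS9, NTS10 and NTS11), 4 anti-GBM mice given vehicle (NTS5 to NTS8) and 3 anti-GBM mice given FGF23 (NTS13, NTS14 and NTS16). All 14 were male C57BL/6JRj mice, aged 8 weeks at immunization and 10 weeks at the end. Anti-GBM mice were immunized with sheep IgG in Freund's complete adjuvant and 4 days later received nephrotoxic serum, an antiserum against the glomerular basement membrane that causes an immune glomerulonephritis. Healthy mice received PBS in its place, and whether they also received adjuvant is not given in the sources used here. From 1 day after the serum, recombinant human FGF23 (1 µg) in PBS with 0.1% bovine serum albumin, or this vehicle, was injected intravenously every day for 6 days. The kidneys were collected 24 h after the final dose. The column of NTS14 carries library number 14 but the mouse name NTS4, which another column also bears, and it was read as NTS14 because the headers of a table of the study have that mouse among the anti-GBM mice given FGF23. A legend of the study gives group sizes that differ from those of the labels and of that table, which were followed. The labels number the mice of each group as biological replicates, and RNA came from 1 fragment of the pars intermedia of a kidney per mouse.

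The interaction asks whether FGF23 acts differently in the diseased kidney. For each gene it is the log2 fold change of FGF23 over vehicle in anti-GBM mice minus the same log2 fold change in healthy mice, so that a positive value means a higher FGF23 response in anti-GBM mice. Expression is given as CPM, the read count scaled to a common library size, which compares mice for 1 gene and not 1 gene with another. Proximal tubule genes such as Lrp2, Cubn and Miox, which mark kidney tissue, summed to 4789 to 10150 CPM over the 14 mice.

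FGF23 is a bone hormone that binds FGF receptors together with the co-receptor Klotho in renal tubules, where it lowers phosphate reabsorption and the activation of vitamin D. Interferon-gamma, a cytokine of T and NK cells, signals through the kinases JAK1 and JAK2 to gamma-activated sites (GAS) in promoters and induces the transcription factor IRF1. Type I interferons act on interferon-stimulated response elements (ISRE). Among the targets of both are the immunity-related GTPases (IRG) and guanylate-binding proteins (GBP), which attack the membranes around intracellular pathogens, and the machinery that presents antigen on class I molecules.

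Genes of the interferon response had the smallest p-values of the interaction. Of 15859 genes tested, 5 passed the cutoff, set at an adjusted p below 0.05 together with a log2 interaction beyond 1 in size (0.0315% of the genes tested), all with a higher FGF23 response in anti-GBM mice. Among them were the IRG GTPases Tgtp1, Tgtp2 and Iigp1 and the checkpoint ligand Cd274 (PD-L1). No gene passed with a lower response. In that direction the smallest adjusted p of edgeR's quasi-likelihood test was 0.0717 (Igfbp1), 444 genes had an unadjusted p below 0.05, DESeq2 called 3 genes and limma-voom called 0. Among the 15 positive interactions with the smallest p, 12 were of genes in the 6 interferon-related lists used here (98 genes tested), and among the 15 negative ones 0 were. These lists were chosen with earlier results of these data known, so that this count is a description.

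Tgtp1 and Tgtp2 encode T-cell-specific GTPases of the IRG family. Tgtp1 (ENSMUSG00000078922, chr11:48985327-48994172 on GRCm38, minus strand) was at 3.90, 3.99, 6.64 and 9.47 CPM in healthy mice given vehicle and at 4.46, 3.75 and 4.95 CPM in healthy mice given FGF23. It was at 3.27, 4.83, 4.93 and 4.25 CPM in anti-GBM mice given vehicle and at 27.5, 27.4 and 16.9 CPM in anti-GBM mice given FGF23. The latter 3 mice all lay above the other 11, which overlapped among the 3 remaining groups. The log2 fold change of FGF23 was 2.47 (SE 0.28) in anti-GBM mice and -0.45 (SE 0.29) in healthy mice, which gives an interaction of 2.92 (SE 0.41) (adjusted p 0.0357, edgeR's quasi-likelihood test). Tgtp2 (ENSMUSG00000078921, chr11:49057194-49064206, minus strand) was at 3.96, 4.47, 6.79 and 6.76 CPM in healthy mice given vehicle, 6.15, 3.51 and 4.25 CPM in healthy mice given FGF23, 3.42, 3.47, 3.13 and 3.24 CPM in anti-GBM mice given vehicle and 12.6, 19.1 and 11.8 CPM in anti-GBM mice given FGF23. Again the FGF23-treated anti-GBM mice stood above every other mouse, and the interaction was 2.36 (SE 0.34) with an adjusted p of 0.0357 (edgeR). Both genes share most of their sequence: 89.4% of the 50-base words of Tgtp1 transcripts occur in Tgtp2 transcripts, and how the authors treated reads that match several genes is not given in the sources used here. The split of reads between both genes is therefore uncertain. With their reads summed to 1 gene, the interaction was 2.68 (SE 0.34) with an adjusted p of 0.023 (edgeR).

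Iigp1 (ENSMUSG00000054072, chr18:60376027-60392634), another IRG GTPase, which shares 3.19% of its 50-base words with other genes, was at 15.2, 19.1, 28.6 and 29.8 CPM in healthy mice given vehicle and 21.8, 11.5 and 19.9 CPM in healthy mice given FGF23. Anti-GBM mice had 10.1, 14.3, 14.9 and 10.4 CPM with vehicle and 45.5, 62.5 and 42.5 CPM with FGF23. No anti-GBM mouse given vehicle exceeded the lowest healthy mouse given vehicle, whereas the 3 FGF23-treated anti-GBM mice were the highest of all 14. Its interaction was 2.39 (SE 0.37), made of 2.01 (SE 0.26) in anti-GBM mice and -0.39 (SE 0.26) in healthy mice, with an adjusted p of 0.0453 (edgeR).

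Cd274 (ENSMUSG00000016496, chr19:29367455-29388095, plus strand) encodes PD-L1, the ligand of the inhibitory T-cell receptor PD-1. Healthy mice had 7.41, 7.37, 6.74 and 8.68 CPM with vehicle and 7.42, 6.01 and 7.32 CPM with FGF23. Anti-GBM mice had 4.04, 4.50, 3.80 and 3.89 CPM with vehicle and 8.89, 11.6 and 8.96 CPM with FGF23. The 4 anti-GBM mice given vehicle were the lowest of the 14 and the 3 given FGF23 the highest, although mouse NTS13 lay close to the healthy mouse NTS4 at 8.68 CPM. The interaction was 1.40 (SE 0.20) with an adjusted p of 0.0357 (edgeR), with FGF23 effects of 1.27 (SE 0.14) in anti-GBM and -0.13 (SE 0.14) in healthy mice.

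**Figure D1:**
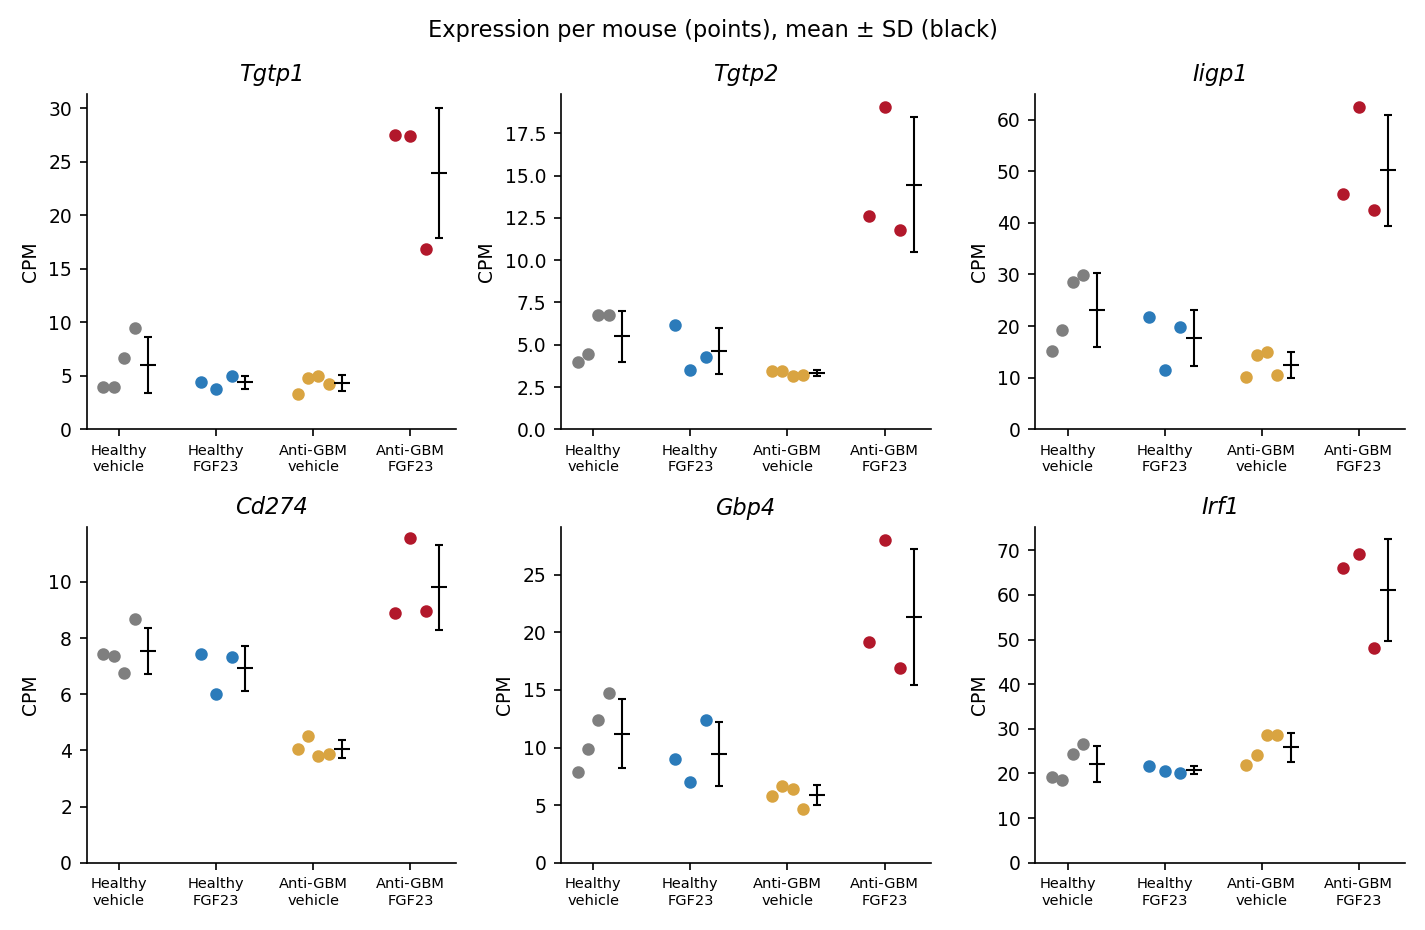
Expression of Tgtp1, Tgtp2, Iigp1 and Cd274, which passed the cutoff, and of Gbp4 and Irf1, which did not, in each of the 14 mice (y axis, CPM, from 0; x axis, the 4 groups); points are mice and black marks are the group mean ± SD. In each panel the 3 anti-GBM mice given FGF23 lie above the other 11 mice, for Iigp1 at 42.5 to 62.5 CPM against at most 29.8 CPM.

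The sizes of these interactions moved little between settings, while the calls did. Over 23 alternatives, 14 of which leave out a single mouse, the interaction of Tgtp1 ranged from 2.61 to 3.12, of Tgtp2 from 2.10 to 2.68, of Iigp1 from 2.16 to 2.56 and of Cd274 from 1.25 to 1.46. The upper end for Tgtp2 is the value of the reads of Tgtp1 and Tgtp2 summed to 1 gene. Their adjusted p reached at most 0.111 for Tgtp1, 0.106 for Tgtp2, 0.132 for Iigp1 and 0.106 for Cd274. In edgeR, 0 genes passed the cutoff when any 1 of 11 mice was left out (NTS3 to NTS11, NTS13 or NTS14), with 592 to 1451 positive and 364 to 966 negative interactions at an unadjusted p below 0.05 in these fits. Without NTS14, whose column name is ambiguous, the interaction of Tgtp1 was 2.80 and the interaction of Cd274 was 1.25. The number of calls was 7 without NTS1, 1 without NTS2 and 13 without NTS16, the anti-GBM mouse given FGF23 that was the lowest of its group for Tgtp1, Tgtp2, Iigp1 and Irf1. DESeq2 called 29 genes (26 positive and 3 negative), and limma-voom called 0 genes, with 887 positive and 420 negative at an unadjusted p below 0.05.

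**Figure D2:**
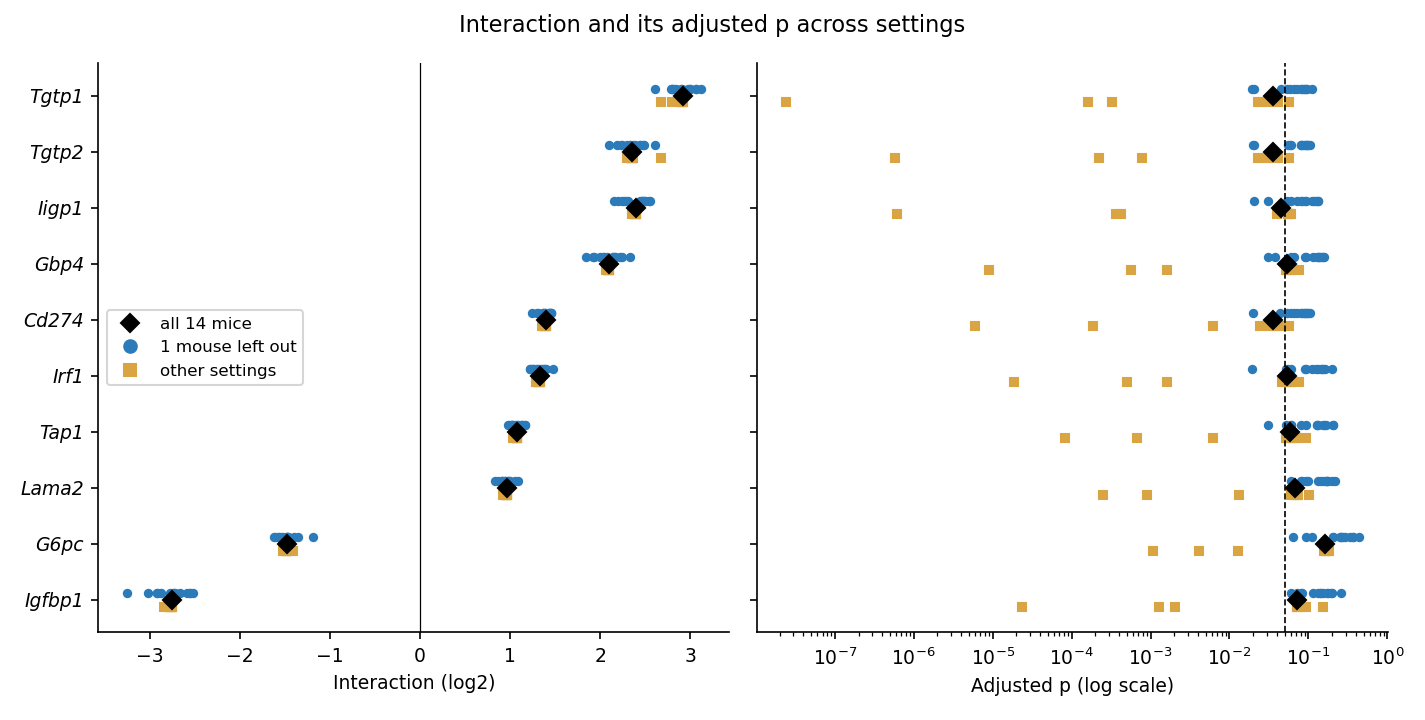
Interaction (left, log2) and its adjusted p (right, log scale, dashed line at 0.05) of 10 named genes with all 14 mice (black diamonds), with 1 mouse left out (blue points) and under other settings (yellow squares). The interaction of each gene stays on 1 side of 0, for Cd274 between 1.25 and 1.46 and for Igfbp1 between -3.25 and -2.52, while the adjusted p falls on both sides of 0.05.

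Over all genes, 872 positive interactions (5.5% of the genes tested) and 444 negative ones (2.8%) had an unadjusted p below 0.05, so that 66.3% were positive. This split depends on the scaling: it was 60.5% positive with RLE size factors and 47.1% positive (635 against 714) with upper quartile scaling. The median interaction over all genes tested was 0.00079, and 50.1% of them were positive. For the 872 positive genes the median FGF23 effect was 0.289 in anti-GBM mice and -0.191 in healthy mice, and for the 444 negative genes it was -0.295 and 0.149, given as a description because the interaction is the difference of both effects. In 372 genes (2.35%) the 3 anti-GBM mice given FGF23 all lay above the other 11 mice, and in 185 genes (1.17%) all lay below.

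**Figure D3:**
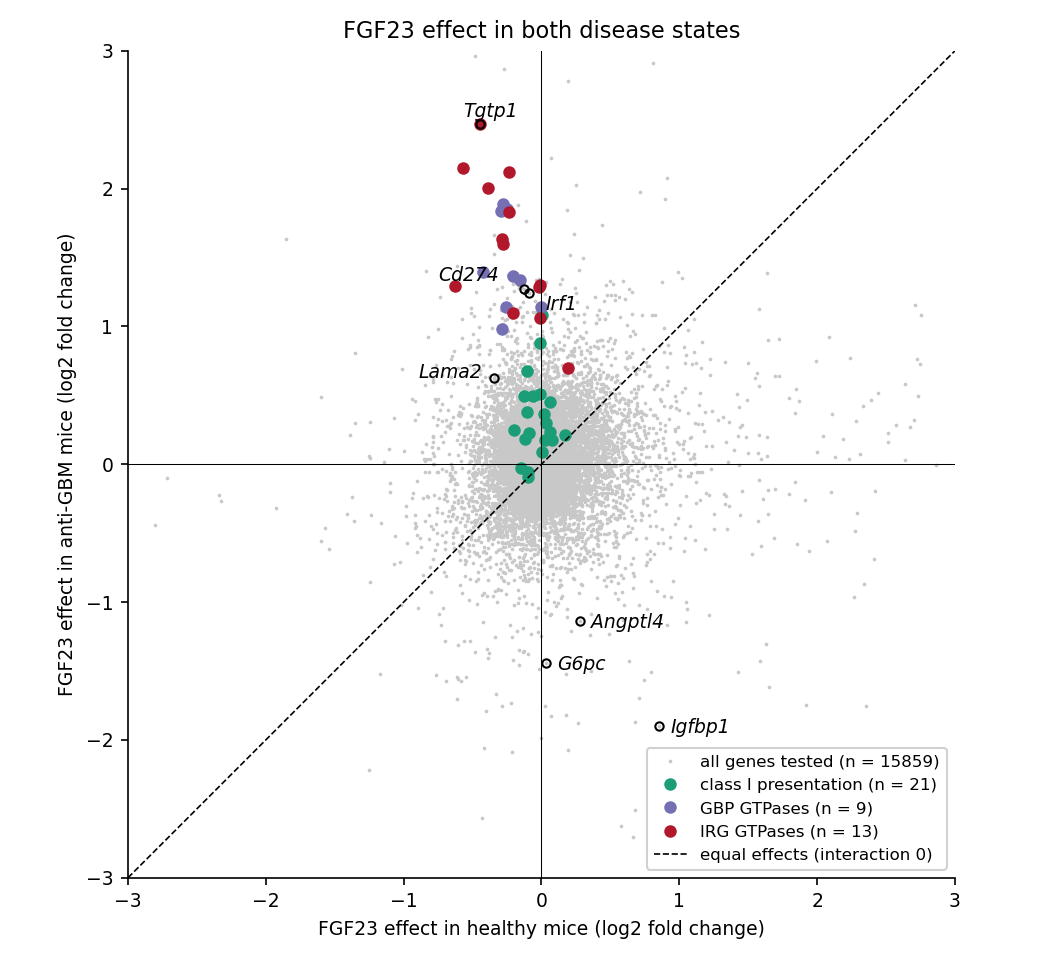
Log2 fold change of FGF23 over vehicle in healthy mice (x axis) and in anti-GBM mice (y axis) for the 15859 genes tested, of which 30 lie outside the plotted range of -3 to 3; coloured points are members of 3 lists, open circles are named genes and the dashed line marks equal effects. The 13 IRG and 9 GBP GTPases lie above the line, with medians of 1.60 and 1.36 in anti-GBM mice and -0.24 and -0.26 in healthy mice, and Igfbp1, G6pc and Angptl4 lie below it.

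The IRG GTPases were the list with the highest median interaction of the 32 lists described. Of its 14 members 13 passed the filter on low counts and Irgc1, with 2 reads over all mice, did not. All 13 interactions were positive, 12 of them at an unadjusted p below 0.05 (5.5% of all genes), 3 passed the cutoff, and the median was 1.92. A filter on low counts keeps a gene that is high in 1 group only, so these counts describe the tested members and not the whole family. Besides Tgtp1 and Tgtp2, the members 9930111J21Rik1, 9930111J21Rik2 and Gm5431 share 79.3%, 52.6% and 47.6% of their 50-base words with other genes. Their reads are therefore uncertain. Gm12185 and Igtp share 17.2% and 12.3%, and the annotated spans of Igtp and Irgm2 overlap on the plus strand, so that reads of these genes are less certain too. The summed level of the 13 genes was 131.4 to 214.7 CPM in healthy mice given vehicle, 111.5 to 171.6 CPM in healthy mice given FGF23, 124.4 to 171.5 CPM in anti-GBM mice given vehicle and 303.3 to 508.2 CPM in anti-GBM mice given FGF23. The groups other than the last overlapped. In bulk RNA of a tissue, a higher level can mean more cells of a type or more RNA per cell, and these cannot be told apart.

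Irgm1, Irgm2 and Igtp are the regulatory members of the family, which hold the effector GTPases inactive on the cell's own membranes. Irgm1, which shares no 50-base word with another gene, was at 53.9, 67.6, 68.99 and 74.7 CPM in healthy mice given vehicle and 68.2, 46.6 and 57.9 CPM in healthy mice given FGF23. Anti-GBM mice had 61.1, 76.2, 83.7 and 70.8 CPM with vehicle and 174, 176 and 119 CPM with FGF23. The interaction of Irgm1 was 1.30 (SE 0.23), with an adjusted p of 0.0684 (edgeR) that missed the threshold, although the 3 FGF23-treated anti-GBM mice lay above all others. For Igtp the values in anti-GBM mice were 12.4, 17.1, 19.6 and 17.8 CPM with vehicle and 56.1, 79.7 and 42.1 CPM with FGF23, against 16.7, 22.05, 25.5 and 29.9 CPM and 25.02, 12.7 and 22.2 CPM in healthy mice, with an interaction of 2.07 (SE 0.37) and an adjusted p of 0.0684 (edgeR). Irgm2 was at 21.1, 27.7, 32.4 and 25.6 CPM and 85.4, 114 and 49.5 CPM in these anti-GBM groups and between 22.8 and 47.4 CPM in healthy mice, with an interaction of 1.92 (SE 0.36) and an adjusted p of 0.0831 (edgeR). Mouse NTS16 was the lowest of its group for all 3 genes. The remaining members spanned interactions from 0.50 (Gm5431, unadjusted p above 0.05) to 2.72 (Gm12185).

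Promoter sequences are shown for the motifs of the interferon pathway, which several of the genes with the largest interactions share. The 250 bases before the start of each gene in RefSeq (GRCm38.p6) were searched for a GAS (TTCNNNGAA, which reads the same on both strands) and an ISRE (GAAANNGAAA, both strands); these motifs do not overlap in the matches below. A promoter was found for 10 of the 13 tested IRG genes. Of these, 6 held a GAS and 7 an ISRE, where 8.13% and 3.46% of all 27025 promoters did. Other interferon-related lists held fewer: of 19 promoters of class I presentation 1 held a GAS and 3 an ISRE. Of 8 promoters of class II presentation 1 held a GAS and 1 an ISRE, and of 19 promoters of type I interferon effectors 4 and 9 did. A GAS followed after exactly 2 bases by an ISRE occurred in 5 of the 27025 promoters (0.0185%), and all 5 were of IRG genes: Tgtp1, Tgtp2, Igtp, Irgm2 and Gm12185. The motifs and the spacing were chosen with the values known, a match is not a measured binding site, and family members that arose by duplication share sequence. The 75 bases around the match follow, 5′ to 3′ on the strand of the gene, with the GAS as the first and the ISRE as the second run of capitals. The positions are chr11:48992290-48992364, minus strand for Tgtp1, chr11:49064249-49064323, minus strand for Tgtp2, chr11:48927224-48927298, minus strand for Gm12185, chr11:58199481-58199555, plus strand for Igtp and chr11:58214872-58214946, plus strand for Irgm2, all outside annotated exons. The windows of Tgtp1, Irgm2 and, below, Gbp5 lie inside the GENCODE spans of these genes, which begin upstream of the RefSeq starts used here.
Tgtp1: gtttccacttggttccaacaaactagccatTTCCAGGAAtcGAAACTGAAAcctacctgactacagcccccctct
Tgtp2: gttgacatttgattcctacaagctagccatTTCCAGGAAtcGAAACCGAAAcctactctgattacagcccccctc
Gm12185: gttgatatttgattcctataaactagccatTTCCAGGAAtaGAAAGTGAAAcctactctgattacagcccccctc
Igtp: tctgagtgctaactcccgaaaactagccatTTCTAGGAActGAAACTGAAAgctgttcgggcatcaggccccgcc
Irgm2: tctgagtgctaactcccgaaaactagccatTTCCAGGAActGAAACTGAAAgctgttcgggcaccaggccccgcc
The interactions that go with these promoters were 2.92 (Tgtp1), 2.36 (Tgtp2), 2.72 (Gm12185), 2.07 (Igtp) and 1.92 (Irgm2).

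All 9 GBP GTPases that passed the filter on low counts had a positive interaction with an unadjusted p below 0.05 (5.5% of all genes), and the median was 1.57. None passed the cutoff in edgeR, and Gbp2b and Gbp11 (75 and 39 reads in all) were not tested. Their summed level was 71.81 to 99.59 CPM in healthy mice given vehicle, 58.86 to 89.4 CPM in healthy mice given FGF23, 67.48 to 100.7 CPM in anti-GBM mice given vehicle and 161.4 to 234.9 CPM in anti-GBM mice given FGF23. Gbp4 had the smallest p, with 7.87, 9.84, 12.4 and 14.7 CPM and 8.97, 6.97 and 12.4 CPM in healthy mice given vehicle and FGF23. Anti-GBM mice had 5.83, 6.69, 6.37 and 4.68 CPM with vehicle and 19.1, 27.98 and 16.9 CPM with FGF23. Like Cd274, Gbp4 was lower in each of the 4 anti-GBM mice given vehicle than in each healthy mouse, and its interaction was 2.10 (SE 0.34) with an adjusted p of 0.0538 (edgeR). Gbp2 and Gbp3 had another pattern. Gbp3 was at 10.6, 11.8, 12.8 and 13.5 CPM in healthy mice given vehicle, 9.44, 8.70 and 11.9 CPM in healthy mice given FGF23, 13.1, 22.8, 22.2 and 20.9 CPM in anti-GBM mice given vehicle and 48.5, 37.4 and 31.04 CPM in those given FGF23, with an interaction of 1.27 (SE 0.27) and an adjusted p of 0.171 (edgeR). In 8 of the 9 genes the 3 FGF23-treated anti-GBM mice were above the other 11 (2.35% of all genes). Gbp9 had an interaction of 1.40 (SE 0.25) and an adjusted p of 0.0684 (edgeR). The exception was Gbp10, a low gene that shares 82.5% of its 50-base words with other genes, at 1.30, 1.70 and 1.39 CPM in these mice and 0.673 to 2.85 CPM in healthy mice. Gbp6 shares 59.7% of its 50-base words with other genes, Gbp8 18.2%, Gbp4 12.8% and Gbp7 12.8%. The annotated spans of Gbp4, Gbp8 and Gbp9 overlap on the minus strand.

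A promoter was found for 4 GBP genes (Gbp2, Gbp3, Gbp5 and Gbp7), all 4 with an ISRE and 2 with a GAS. Gbp5, which takes part in inflammasome assembly, had an interaction of 1.49 (SE 0.31) and an adjusted p of 0.162 (edgeR), at 5.16, 8.62, 6.99 and 6.70 CPM in anti-GBM mice given vehicle and 21.04, 17.9 and 12.97 CPM in those given FGF23. Gbp7 had an interaction of 1.57 (SE 0.36), at 10.2, 15.3, 21.4 and 12.3 CPM and 48.7, 43.2 and 22.7 CPM. The windows of both are shown, since here the ISRE lies on the opposite strand and lacks the fixed spacing of the IRG promoters. Capitals mark in Gbp5 the ISRE (its GAS lies outside the bases shown) and in Gbp7 a pair of GAS followed by the ISRE (chr3:142496709-142496813, plus strand for Gbp5 and chr3:142530223-142530327, plus strand for Gbp7).
Gbp5: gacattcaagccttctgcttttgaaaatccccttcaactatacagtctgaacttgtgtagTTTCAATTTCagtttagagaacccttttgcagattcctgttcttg
Gbp7: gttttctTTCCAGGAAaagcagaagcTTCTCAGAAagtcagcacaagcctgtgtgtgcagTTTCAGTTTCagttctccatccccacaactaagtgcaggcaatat

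Of the interferon-gamma signaling and checkpoint genes, Irf1, Nlrc5 and Ciita had larger values than the receptor and its kinases. Of 17 members tested 14 were positive, 8 of them at an unadjusted p below 0.05 (5.5% of all genes) and 0 in the negative direction, with a median of 0.48. Irf1, an interferon-induced transcription factor, came just under the cutoff. It was at 19.1, 18.5, 24.3 and 26.7 CPM in healthy mice given vehicle, 21.7, 20.6 and 20.1 CPM in healthy mice given FGF23, 21.9, 24.2, 28.6 and 28.7 CPM in anti-GBM mice given vehicle and 66.1, 69.1 and 48.1 CPM in anti-GBM mice given FGF23. The 3 last mice lay above all others, and the interaction was 1.33 (SE 0.21) with an adjusted p of 0.0533 (edgeR), which ranged from 1.88e-05 to 0.202 over the alternatives. Nlrc5 and Ciita, the transactivators of class I and class II genes, had interactions of 1.52 (SE 0.32) and 1.42 (SE 0.40) with adjusted p of 0.162 and 0.376 (edgeR). Nlrc5 was at 8.23, 9.52, 9.40 and 6.62 CPM in anti-GBM mice given vehicle and 23.5, 19.1 and 20.4 CPM in those given FGF23, with healthy mice between 4.28 and 8.68 CPM. Ciita was at 17.8, 16.9, 15.6 and 5.62 CPM and 35.2, 40.6 and 26.5 CPM in these groups, the low value with vehicle being that of mouse NTS8.

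The upstream members had values near 0: -0.09 (SE 0.12) for Ifngr1 and 0.04 (SE 0.17) for Ifngr2, the receptor chains, 0.22 (SE 0.13) for Jak1 and 0.17 (SE 0.16) for Jak2. The feedback inhibitor Socs1 had 0.48 (SE 0.52) and Socs3 had -1.12 (SE 0.68), neither at an unadjusted p below 0.05. Ifng itself had 0 to 2 reads per mouse and 12 in all, and Pdcd1lg2 and Ido1 had 15 and 33 reads in all, so that these 3 genes were not tested and a difference in them was not detectable at this depth. The promoter of Irf1 held a single GAS (chr11:53769894-53769968, plus strand, capitals), as 4 of 13 promoters of this list did.
Irf1: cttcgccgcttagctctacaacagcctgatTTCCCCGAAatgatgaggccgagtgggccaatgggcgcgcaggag

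Class I antigen presentation showed smaller interactions of the same sign. All 21 members tested were positive, 10 at an unadjusted p below 0.05 (5.5% of all genes), with a median of 0.31. Under RLE or upper quartile scaling 20 of 21 were positive and 8 were at an unadjusted p below 0.05. The peptide transporter and immunoproteasome subunits led. Tap1, a subunit of the transporter that loads class I molecules, was at 13.6, 13.6, 17.3 and 18.2 CPM in healthy mice given vehicle, 16.01, 13.4 and 17.8 CPM in healthy mice given FGF23, 21.5, 24.1, 22.3 and 20.6 CPM in anti-GBM mice given vehicle and 49.97, 49.4 and 41.4 CPM in anti-GBM mice given FGF23. Its FGF23 effect was 1.08 (SE 0.12) in anti-GBM mice and 0.00 (SE 0.13) in healthy mice, with an interaction of 1.08 (SE 0.18) and an adjusted p of 0.0579 (edgeR). Psmb8, an immunoproteasome subunit, was at 21.7, 24.3, 22.04 and 24.3 CPM and 36.6, 40.3 and 33.4 CPM in the 2 anti-GBM groups and 10.1 to 12.99 CPM in healthy mice, with an interaction of 0.78 (SE 0.14) and an adjusted p of 0.0684 (edgeR). Tap2 had 0.52 (SE 0.13), Psmb9 0.89 (SE 0.24) and Psmb10 0.62 (SE 0.21). In 11 of the 21 genes the FGF23-treated anti-GBM mice lay above the other 11 mice (2.35% of all genes). The chaperones Calr, Canx and Pdia3, which serve glycoproteins in general, had interactions of 0.05, 0.12 and 0.00.

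Class II genes, which belong to professional antigen-presenting cells, were positive in 11 of 11 with a median of 0.46. Only Ciita had an unadjusted p below 0.05 in edgeR (5.5% of all genes). Their summed level was 1265 to 2508 CPM in anti-GBM mice given vehicle and 2444 to 2808 CPM in anti-GBM mice given FGF23, which overlapped, against 483.0 to 698.1 CPM in healthy mice of both groups.

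Type I interferon effectors, many of them antiviral proteins, were positive in 28 of 28 members tested (27 of 28 under RLE or upper quartile scaling), 15 at an unadjusted p below 0.05 (5.5% of all genes), with a median of 0.60. Parp14 had an interaction of 1.23 (SE 0.26) and an adjusted p of 0.162 (edgeR), at 29.7, 32.5, 42.2 and 23.04 CPM in anti-GBM mice given vehicle and 77.3, 61.1 and 47.9 CPM in those given FGF23. Zbp1, a sensor of nucleic acids, had 1.31 (SE 0.36) and was at 5.32, 7.40, 4.52 and 4.32 CPM and 13.4, 11.6 and 11.5 CPM in these groups. The classical members were smaller, with 0.85 for Ifit1, 0.72 for Isg15, 0.82 for Irf7 and 0.00 for Ifi27. The median of this list was below those of the IRG and GBP GTPases, a difference that was not tested.

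Among chemokines and their receptors, 14 of 20 interactions were positive, 4 at an unadjusted p below 0.05 (3 under upper quartile scaling, against 5.5% of all genes), and the median was 0.32. Cxcl10, an interferon-induced chemokine that attracts T cells through CXCR3, was at 4.24, 6.41, 6.79 and 6.82 CPM in healthy mice given vehicle and 4.74, 2.21 and 5.99 CPM in healthy mice given FGF23. It was at 9.15, 16.3, 16.6 and 14.5 CPM in anti-GBM mice given vehicle and 44.01, 25.3 and 21.4 CPM in those given FGF23. The interaction was 1.61 (SE 0.45) with an adjusted p of 0.371 (edgeR), and the lowest FGF23-treated anti-GBM mouse lay above the highest of the other 11. The receptor Cx3cr1 of monocytes had 0.96 (SE 0.33) and its ligand Cx3cl1 0.35 (SE 0.16), with adjusted p of 0.5 and 0.589 (edgeR). The neutrophil-attracting Cxcl1, Cxcl2 and Cxcl5 had -0.79 (SE 0.77), -0.85 (SE 0.78) and -2.19 (SE 1.70), none at an unadjusted p below 0.05. NF-kB and cytokine genes were positive in 10 of 18 with a median of 0.05 (9 of 18 and 0.0053 under upper quartile scaling), and 0 had an unadjusted p below 0.05 in either direction in edgeR. Their adhesion molecule Vcam1 was at 148, 193, 135 and 129 CPM in anti-GBM mice given vehicle and 342, 182 and 150.1 CPM in those given FGF23, the first of the latter (NTS13) standing above the other mice, with an interaction of 0.49 (SE 0.33) and an adjusted p of 0.686 (edgeR). Without NTS13 the interaction of Vcam1 was 0.04. Complement genes were positive in 9 of 16 with a median of 0.02 (7 of 16 and -0.01 under upper quartile scaling). Cell death and inflammasome genes were positive in 7 of 11 with a median of 0.23. The executioner of necroptosis Mlkl (0.95 (SE 0.34)) and Nlrp3 (0.85 (SE 0.35)) were the members at an unadjusted p below 0.05 (5.5% of all genes). Nlrp3 was low, with 9 to 53 reads per mouse.

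Markers of leukocytes were set beside these genes. Macrophage and leukocyte markers were positive in 6 of 12 with a median of 0.04, and their summed level was 124.2 to 133.4 CPM in healthy mice given vehicle, 114.1 to 166.3 CPM in healthy mice given FGF23, 224.1 to 453.6 CPM in anti-GBM mice given vehicle and 378.2 to 392.9 CPM in anti-GBM mice given FGF23. In anti-GBM mice the summed range with FGF23 lay inside that with vehicle, and none of the 12 markers was at 0 in any mouse. The 12 interactions ranged from -2.27 to 0.77, with 0 at an unadjusted p below 0.05 in edgeR in either direction. In 2 of the 12 markers the FGF23-treated anti-GBM mice lay above the other 11 (2.35% of all genes). Ptprc (CD45), found on all leukocytes, was at 30.8, 28.4, 22.6 and 12.9 CPM in anti-GBM mice given vehicle and 35.4, 38.9 and 33.8 CPM in those given FGF23, with an interaction of 0.65 (SE 0.33) and an adjusted p of 0.635 (edgeR). Adgre1, which encodes the macrophage antigen F4/80, was at 23.3, 25.99, 15.1 and 9.29 CPM and 24.9, 29.1 and 23.6 CPM, with 0.70 (SE 0.39) and an adjusted p of 0.653 (edgeR). The low vehicle value of both was that of mouse NTS8. T and NK cell markers were positive in 13 of 13 tested (12 of 13 under RLE and 11 of 13 under upper quartile scaling), 0 at an unadjusted p below 0.05 in edgeR, with a median of 0.30. Their summed level was 9.281 to 14.68 CPM in healthy mice given vehicle, 10.63 to 15.75 CPM in healthy mice given FGF23, 12.74 to 21.52 CPM in anti-GBM mice given vehicle and 23.21 to 25.92 CPM in anti-GBM mice given FGF23, so that in this sum the last group did not overlap the others. Taken singly, 1 of the 13 genes (Trac) had the FGF23-treated anti-GBM mice above the other 11 (2.35% of all genes). Of this list Gzma was at 0 in at least 1 mouse, and Gzmb, Prf1, Ncr1 and Klrb1c were too low to test. Without mouse NTS8 the interaction of Tgtp1 was 2.90 and the interaction of Cd274 was 1.36, and 0 genes passed the cutoff in that fit. The part of these markers in the interferon genes was not tested, and leaving out 1 mouse cannot test it.

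Neutrophil markers were negative in 5 of 5 with a median of -1.06, at a summed level of 9.523 to 19.06 CPM in anti-GBM mice given vehicle and 6.288 to 9.659 CPM in those given FGF23, which overlapped, against at most 3.345 CPM in healthy mice. Retnlg, a neutrophil secretory protein, was the member with an unadjusted p below 0.05 (-3.20 (SE 1.05), against 2.8% of all genes). It was a low gene, with 0 to 47 reads per mouse, and Cxcr2 had 0 to 19. Endothelial markers were negative in 9 of 11 with a median of -0.16, and podocyte markers were positive in 6 of 10 with a median of 0.01 (3 of 10 and -0.03 under upper quartile scaling). None of these 2 lists had a member at an unadjusted p below 0.05 in edgeR in either direction.

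**Figure D4:**
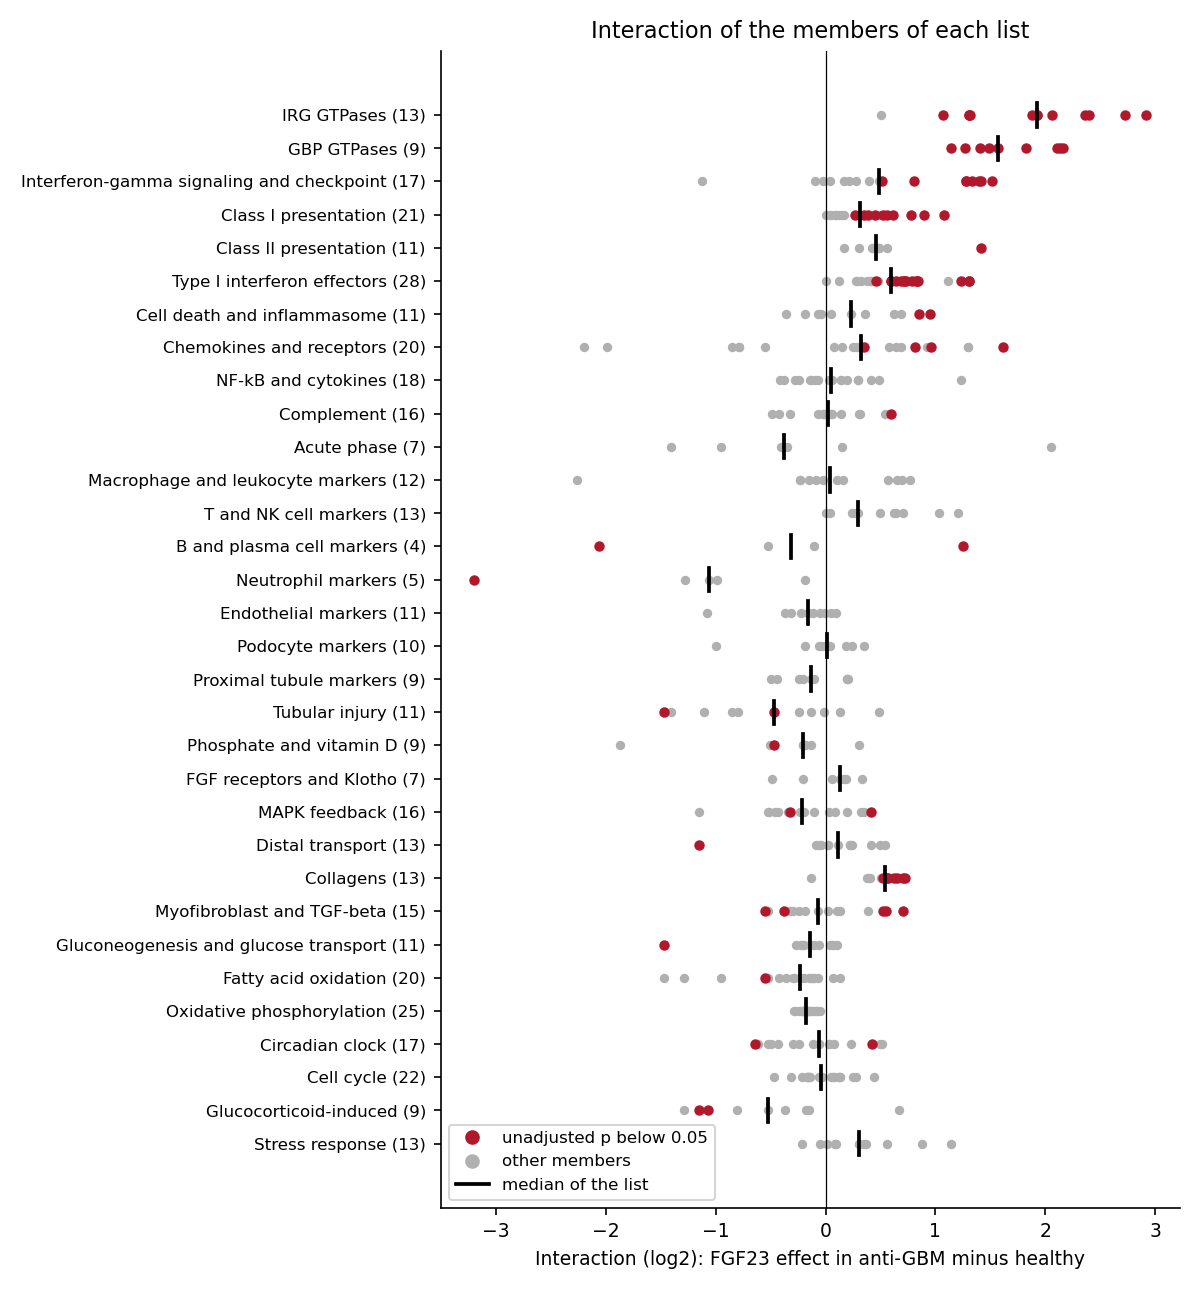
Interaction (x axis, log2) of every tested member of the 32 lists (y axis, number of tested members in parentheses); red points have an unadjusted p below 0.05, grey points do not, and the black tick is the median of the list. The IRG and GBP GTPases, with medians of 1.92 and 1.57, lie to the right of the other lists, and the neutrophil markers, with -1.06, have the lowest median.

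Lama2, the laminin chain of muscle and interstitial basement membranes, was at 28.1, 25.1, 28.2 and 23.7 CPM in healthy mice given vehicle, 17.5, 24.1 and 20.6 CPM in healthy mice given FGF23, 24.4, 25.8, 25.2 and 22.7 CPM in anti-GBM mice given vehicle and 38.4, 32.1 and 42.8 CPM in anti-GBM mice given FGF23. The 3 last mice were the highest and the healthy FGF23 mice included the lowest, and the interaction was 0.96 (SE 0.17) with an adjusted p of 0.0684 (edgeR), with effects of 0.62 (SE 0.12) in anti-GBM and -0.34 (SE 0.12) in healthy mice. Of 13 collagens tested 12 were positive, 7 at an unadjusted p below 0.05 (6 under upper quartile scaling, against 5.5% of all genes), and the median was 0.54. Col4a1 and Col4a2, the chains of the ubiquitous basement membrane collagen, had 0.56 (SE 0.18) and 0.52 (SE 0.14), with adjusted p of 0.475 and 0.365 (edgeR). Col4a2 was at 228, 203 and 229.6 CPM in healthy mice given FGF23 and 240.1, 245, 245 and 254 CPM in those given vehicle, and at 565, 493 and 619 CPM in anti-GBM mice given FGF23 and 380.1, 457, 498 and 406 CPM in those given vehicle, which overlapped. The summed level of the collagens was 2274 to 3172 CPM in anti-GBM mice given vehicle and 3004 to 4137 CPM in those given FGF23.

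The receptor Pdgfrb of pericytes and fibroblasts was at 62.5, 54.5, 67.3 and 57.2 CPM in healthy mice given vehicle and 60.8, 63.7 and 59.2 CPM in healthy mice given FGF23. It was at 73.8, 82.8, 96.7 and 93.7 CPM in anti-GBM mice given vehicle and 139, 129 and 111 CPM in those given FGF23, above all others, with an interaction of 0.52 (SE 0.15) and an adjusted p of 0.397 (edgeR). The microfibril gene Fbn1 had 0.70 (SE 0.26) with an adjusted p of 0.522 (edgeR), and its anti-GBM groups overlapped. The contractile genes Acta2 and Tagln, which mark myofibroblasts and smooth muscle, had negative values of -0.55 (SE 0.19) and -0.38 (SE 0.13): Acta2 was at 26.9, 30.2, 33.4 and 27.6 CPM in healthy mice given vehicle and 38.4, 43.7 and 42.4 CPM in healthy mice given FGF23, and at 76.5, 67.05, 102.4 and 103 CPM and 80.1, 83.2 and 87.6 CPM in the anti-GBM groups, which overlapped. The list of myofibroblast and TGF-beta genes was thus mixed, with 7 of 15 positive and a median of -0.07. At an unadjusted p below 0.05 were 3 positive members (5.5% of all genes) and 2 negative ones (2.8% of all genes).

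Among negative interactions Igfbp1 had the smallest p. Igfbp1 (ENSMUSG00000020429, chr11:7197782-7202546), a secreted binding protein of insulin-like growth factors, was at 12, 8.36, 4.89 and 12.3 CPM in healthy mice given vehicle and 10.8, 17.6 and 22.4 CPM in healthy mice given FGF23. It was at 7.62, 8.56, 5.39 and 7.05 CPM in anti-GBM mice given vehicle and 1.39, 3.00 and 1.34 CPM in anti-GBM mice given FGF23, which were the 3 lowest values. The healthy groups overlapped. The interaction was -2.76 (SE 0.50), made of -1.90 (SE 0.38) in anti-GBM and 0.85 (SE 0.32) in healthy mice, with an adjusted p of 0.0717 (edgeR) that missed the threshold and ranged from 2.35e-05 to 0.261 over the alternatives. The promoter of Igfbp1 is shown for the core of its insulin response element (CAAAACAA, both strands searched), which 2.54% of all promoters hold and which lies 108 to 101 bases before the start (chr11:7197649-7197723, plus strand, capitals).
Igfbp1: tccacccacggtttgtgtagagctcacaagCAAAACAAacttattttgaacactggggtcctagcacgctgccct

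G6pc (ENSMUSG00000078650, chr11:101367561-101377903), the catalytic subunit of glucose-6-phosphatase, which releases glucose in the last step of gluconeogenesis, was at 352, 421, 361 and 372 CPM in healthy mice given vehicle and 338, 426 and 392 CPM in healthy mice given FGF23. Anti-GBM mice had 999, 452, 508 and 592 CPM with vehicle, NTS5 being the highest, and 191, 277 and 238 CPM with FGF23, below all other mice. The interaction was -1.47 (SE 0.31) with an adjusted p of 0.162 (edgeR), and the interaction of G6pc was -1.19 without mouse NTS5. The other gluconeogenic genes did not share this size: Pck1 had -0.21 (SE 0.40), Fbp1 -0.23 (SE 0.19) and Slc37a4 -0.27 (SE 0.22), and the list had 3 of 11 positive, 1 at an unadjusted p below 0.05 in the negative direction (2.8% of all genes) and a median of -0.14. Angptl4, a fasting-induced inhibitor of lipoprotein lipase, was at 42.9, 44.5, 31.1 and 68.1 CPM in healthy mice given vehicle and 58.5, 57.5 and 53.4 CPM in healthy mice given FGF23. It was at 129.7, 93.1, 136 and 184 CPM in anti-GBM mice given vehicle and 59.3, 43.7 and 81.9 CPM in those given FGF23, with an interaction of -1.42 (SE 0.37) and an adjusted p of 0.347 (edgeR). The ranges of both anti-GBM groups were separate, and of those given FGF23 only NTS16 lay above the range of healthy mice.

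The other genes among the 15 smallest p of negative interactions belonged to none of the lists, and none passed the cutoff. Ogfod2, which encodes a protein with an oxygenase domain, was at 24.8, 24.9, 24.6 and 24.2 CPM in healthy mice given vehicle, 27.5, 27.7 and 26.97 CPM in healthy mice given FGF23, 26.4, 25.9, 24.5 and 29.4 CPM in anti-GBM mice given vehicle and 21.4, 20.6 and 21.6 CPM in anti-GBM mice given FGF23. The last 3 mice were the lowest of the 14, and the interaction was -0.48 (SE 0.10) with an adjusted p of 0.162 (edgeR). Atg14, a subunit of the lipid kinase complex that starts autophagy, was at 17.1, 16.2, 19.2 and 19.2 CPM and 15.6, 14.7 and 15.1 CPM in the anti-GBM groups, below the 20.4 CPM or more of healthy mice, with -0.43 (SE 0.12). In Fbxo34 (-0.50 (SE 0.13)) and Rhebl1 (-0.85 (SE 0.23)) the anti-GBM mice given FGF23 also lay below the other 11 (1.17% of all genes). Zbtb22 had -0.44 (SE 0.10), Zswim4 -0.72 (SE 0.18), the long noncoding RNA Gm15889 -0.90 (SE 0.23), the retinaldehyde dehydrogenase Aldh1a1 -0.94 (SE 0.25), Vps37d -1.09 (SE 0.29) and the ciliary transport gene Ift27 -0.49 (SE 0.13), and in these 6 genes the anti-GBM mice given FGF23 did not all lie below the other 11.

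**Figure D5:**
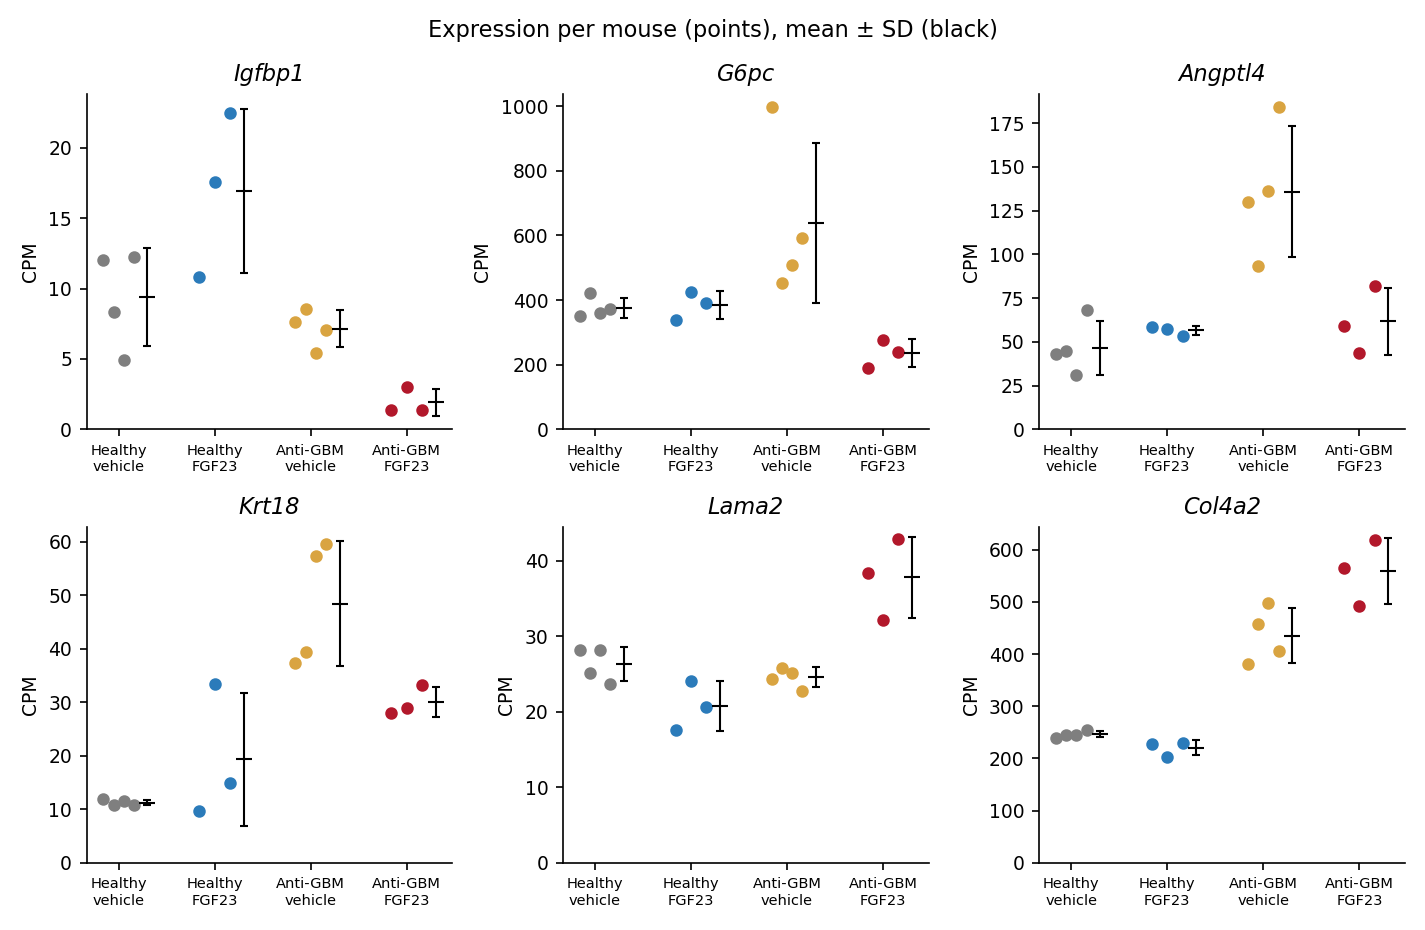
Expression of 3 genes with a negative interaction (Igfbp1, G6pc and Angptl4), of the injury keratin Krt18 and of the matrix genes Lama2 and Col4a2 in each mouse (y axis, CPM, from 0; x axis, the 4 groups); points are mice and black marks are the group mean ± SD. Igfbp1 is at 1.34 to 3.00 CPM in anti-GBM mice given FGF23 and at 4.89 CPM or more in every other mouse, whereas Krt18 is spread in healthy mice given FGF23 by NTS10 at 33.4 CPM.

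Fatty acid oxidation genes were negative in 18 of 20 with a median of -0.24. Only Acaa1b (-0.55 (SE 0.24)) had an unadjusted p below 0.05 in edgeR, against 2.8% of all genes in the negative direction. Under upper quartile scaling 2 members did. In this list the fatty acid hydroxylase Cyp4a14 had -1.47 (SE 1.23) and Pdk4, which spares glucose in fasting, -1.29 (SE 0.78). Oxidative phosphorylation genes were negative in 25 of 25 with a median of -0.18 and a range from -0.28 to -0.05, and 0 had an unadjusted p below 0.05 in edgeR in either direction. Proximal tubule markers, the cells rich in these enzymes, were negative in 6 of 9 with a median of -0.14, at a summed level of 6223 to 8786 CPM in anti-GBM mice given vehicle and 4789 to 6385 CPM in those given FGF23. Healthy mice had 7917 to 10150 CPM with vehicle and 7934 to 9410 CPM with FGF23. The median FGF23 effect of these markers was below 0 in both states, at -0.33 in anti-GBM and -0.21 in healthy mice. The part of the tubule markers in these lists was not tested.

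Glucocorticoid-induced genes were negative in 8 of 9 with a median of -0.53. Sgk1, a kinase that raises sodium transport, was at 63.3, 67.6, 51.3 and 61.8 CPM in healthy mice given vehicle, 54.6, 103 and 33.1 CPM in healthy mice given FGF23, 317, 237, 460.3 and 339 CPM in anti-GBM mice given vehicle and 101.7, 121 and 253 CPM in those given FGF23, with an interaction of -1.15 (SE 0.50) and an adjusted p of 0.577 (edgeR). Without NTS10, the highest healthy mouse, the interaction of Sgk1 was -0.62. Mt2, a metallothionein, had -1.07 (SE 0.46) and an adjusted p of 0.577 (edgeR). The most specific member of the list, Fkbp5, had -0.15 (SE 0.37).

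Tubular injury markers were negative in 9 of 11 with a median of -0.47, 2 of the negative ones at an unadjusted p below 0.05 (2.8% of all genes). Krt18, a keratin of injured tubules, was at 11.8, 10.9, 11.5 and 10.7 CPM in healthy mice given vehicle and 9.72, 33.4 and 14.8 CPM in healthy mice given FGF23, and at 37.3, 39.4, 57.3 and 59.6 CPM in anti-GBM mice given vehicle and 28.1, 28.9 and 33.3 CPM in those given FGF23. The interaction was -1.47 (SE 0.43) with an adjusted p of 0.397 (edgeR), and the interaction of Krt18 was -0.80 without NTS10. Krt8, its partner, had -0.47 (SE 0.17). Havcr1 (KIM-1) had -1.10 (SE 0.74), and Lcn2 (NGAL), at 28.6, 61.8, 189.8 and 167 CPM in anti-GBM mice given vehicle and 142, 54.1 and 52.7 CPM in those given FGF23, had -1.40 (SE 1.05) with an adjusted p of 0.703 (edgeR). Without NTS10 the interaction of Lcn2 was -0.80.

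Of 7 FGF receptor and Klotho genes tested 5 were positive, 0 had an unadjusted p below 0.05 in edgeR in either direction, and the median was 0.13. Kl, which encodes Klotho, was at 968, 1106, 1388 and 1391 CPM in healthy mice given vehicle and 1111, 962 and 928 CPM in healthy mice given FGF23. It was at 977, 660.5, 659 and 611 CPM in anti-GBM mice given vehicle and 506, 760.3 and 780.5 CPM in those given FGF23, with an interaction of 0.19 (SE 0.27) and an adjusted p of 0.847 (edgeR), ranging from 0.08 to 0.35 over the alternatives. The receptors had 0.06 (SE 0.08) (Fgfr1), -0.49 (SE 0.26) (Fgfr2), -0.21 (SE 0.17) (Fgfr3) and 0.13 (SE 0.18) (Fgfr4), and without NTS10 the interaction of Fgfr2 was -0.18. Of the genes of phosphate and vitamin D handling, 8 of 9 were negative with a median of -0.20. The vitamin D receptor Vdr, with -0.47 (SE 0.21), was the member at an unadjusted p below 0.05 in edgeR (2.8% of all genes). Under upper quartile scaling 2 members were. Vdr was at 467, 317, 345 and 291 CPM in anti-GBM mice given vehicle and 229.8, 256 and 247 CPM in those given FGF23, the 3 lowest of the 14 mice. The phosphate transporters Slc34a1 and Slc34a3 had -0.19 (SE 0.27) and -0.21 (SE 0.26). Cyp24a1, the vitamin D-degrading enzyme that FGF23 induces, was at 44.8, 29.2, 63.6 and 169 CPM in healthy mice given vehicle, 134, 17.02 and 45.6 CPM in healthy mice given FGF23, 282, 155, 94.5 and 48.7 CPM in anti-GBM mice given vehicle and 14.7, 9.61 and 78.1 CPM in those given FGF23. Its values varied more than 5-fold within each group, and the interaction of -1.87 (SE 1.17) had an adjusted p of 0.673 (edgeR). The interaction of Cyp24a1 was -0.81 without NTS9 and -3.36 without NTS16.

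MAPK feedback genes, which report on signaling of FGF receptors, were positive in 6 of 16 with a median of -0.21. The inhibitors Spred1 and Spred2 had an unadjusted p below 0.05 in opposite directions, 0.41 (SE 0.15) and -0.33 (SE 0.13). Of all genes 5.5% were positive and 2.8% negative at this p in edgeR. Spred2 was at 52.2, 48.97, 51.3 and 42.98 CPM in anti-GBM mice given vehicle and 38.3, 36.5 and 35.2 CPM in those given FGF23, below all others. The transcription factor Etv5 was at 23.9, 16.7, 18.4 and 16.5 CPM and 11.8, 10.5 and 10.5 CPM in these groups, with -0.52 (SE 0.29) (-0.30 without NTS9), while Dusp6, Spry2 and Egr1 had 0.09, 0.03 and 0.20. Genes of distal transport were positive in 9 of 13 with a median of 0.11, the negative Sgk1 being the member at an unadjusted p below 0.05 (2.8% of all genes).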

How the data were processed

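Kidney RNA of 14 mice was sequenced after stranded mRNA library preparation. Alignment by the authors was to GRCm38 with STAR 2.7.9a. The authors assigned reads to Ensembl release 102 genes with featureCounts 1.5.1 and deposited raw counts per gene without normalization or filtering. The strand setting and the treatment of reads that match several genes are not given in the sources used here. The table has 55487 genes, of which 55141 had a symbol. The labels give the groups but not the mouse names of the columns, so columns were assigned to groups from the headers of a supplementary table of the study, and columns not used numbered 0. Total counts per mouse ranged from 13704248 to 23630210, TMM factors from 0.891 to 1.14, and no pair of mice of a group agreed within sampling noise (smallest chi-square per degree of freedom 10.7).

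Counts were filtered with filterByExpr (minimum count 10), scaled by TMM and fitted with edgeR 4.0.16 (quasi-likelihood test) over the 4 groups, with Benjamini-Hochberg adjustment over the 15859 genes tested. The SE is that implied by the F statistic. The cutoff was an adjusted p below 0.05 together with a log2 interaction beyond 1 in size. The study used DESeq2 and adjusted over 3 contrasts combined; DESeq2 1.42.0, limma 3.58.1 (voom) and this adjustment were alternatives, as were RLE and upper quartile scaling, 2 other filters, a robust fit, 2 other cutoffs, Tgtp1 and Tgtp2 summed, and each mouse left out, in R 4.3.3. The fit was checked on simulated data. Names were drawn from the genes past the cutoff, the 15 smallest p in each direction, the 3 smallest p and descriptive members of each of 32 lists, and genes the study names for this experiment; list members not printed enter only the counts and medians. The members, lists and motifs were chosen with earlier results of these data known. Lists were described by counts and medians without a test. Promoters came from RefSeq (GRCm38.p6) and coordinates and 50-base words from GENCODE M21, which are on the build of the files. The other 24 libraries were not used here, and 3 genes, 1 of them past the cutoff, are not reported here.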

Additional observations from a re-analysis of the deposited data

Results flagged for a closer look

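A test of the difference itself, the interaction in edgeR, set genes apart: the FGF23 effect in anti-GBM mice exceeded that in healthy mice by 2.92 for Tgtp1, 2.36 for Tgtp2, 2.39 for Iigp1 and 1.40 for Cd274 on the log2 scale.

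In groups of 4, a mouse whose distance to the nearest other mouse took up more of the group's range than chance allows (Dixon's test at 95%) was found in 7 of 124 groups over 62 genes, where chance alone gives about 1 in 20. Among anti-GBM mice given vehicle these were NTS8 with a low Gm8995 (8.21 CPM), NTS5 with a low Gbp2 (19.8 CPM), NTS7 with a high Gbp6 (4.47 CPM), NTS6 with a low Aldh1a1 (11.9 CPM) and NTS5 with a high Kl (977 CPM). Among healthy mice given vehicle they were NTS2 with a low Tap2 (22.7 CPM) and NTS1 with a low Cxcl10 (4.24 CPM). The interaction of Kl was 0.35 without NTS5.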

How the results depend on the processing

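Of the 116 genes followed across the alternatives, 114 kept the sign of the interaction under all alternatives that gave a value, and Hp (-0.95, from -3.41 to 2.24) and Mcm6 (-0.15, from -0.25 to 0.01) did not. The median interaction over all genes stayed between -0.0414 and 0.00913. The number of genes past the cutoff, 5 in all and 5 positive, was 3 (3 positive) with RLE size factors and with upper quartile scaling, and 5 with a filter of 10 counts in every mouse or a robust fit. It was 25 (23 positive and 2 negative) without a filter, 29 (26 and 3) with DESeq2, 0 with limma-voom (smallest adjusted p 0.0571), 73 (49 and 24) with adjustment over the 3 contrasts combined, 2 (2 positive) with Tgtp1 and Tgtp2 summed and 16 (15 and 1) at an adjusted p below 0.10. With 1 mouse left out it ranged from 0 to 13, with 0 to 11 positive and 0 to 2 negative. The cause of these changes was not tested.

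At an unadjusted p below 0.05, negative interactions numbered 714 under upper quartile scaling and 695 without a filter. With 1 mouse left out, positive ones ranged from 592 to 1451 and negative ones from 364 to 966, both highest without NTS7. The medians of the 6 interferon-related lists kept their sign, and with 1 mouse left out those of the interferon-gamma signaling list ranged from 0.3624 to 0.6585 and those of class I presentation from 0.1915 to 0.3831. No paired analysis was possible because the replicate numbers of the labels count different mice within a group, with nothing that ties a number to a litter, batch or day, and the columns do not carry them. Depth left Ifng, Pdcd1lg2 and Ido1 untested, and a gene that was not called is not shown to respond alike in healthy and anti-GBM mice.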

Other observations

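Creb1, which encodes a cAMP-responsive transcription factor, was, with Lama2 and Gm8995, among the 3 genes of the 15 smallest p of positive interactions that lay in none of the interferon-related lists. It was at 35.7, 36.1, 36.99 and 35.7 CPM in healthy mice given vehicle, 28.4, 31.6 and 27.6 CPM in healthy mice given FGF23, 26.6, 27.2, 32.1 and 24.1 CPM in anti-GBM mice given vehicle and 38.1, 38.8 and 33.96 CPM in anti-GBM mice given FGF23, with an interaction of 0.73 (SE 0.13) and an adjusted p of 0.0684 (edgeR). Neither pair of groups overlapped: FGF23-treated mice were lower among healthy mice and higher among anti-GBM mice. Gm8995, annotated as a transcribed unprocessed pseudogene, shares 19% of its 50-base words with other genes, so that its reads are uncertain. It was at 26.5, 24.9 and 25.6 CPM in anti-GBM mice given FGF23 and between 8.21 and 15.8 CPM in the other mice, with an interaction of 1.35 (SE 0.24).

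Vsig2 and Grin2d, both below 3 CPM, had negative interactions that came mainly from healthy mice. Vsig2 was at 0.679, 0.428, 0.399 and 0.53 CPM in healthy mice given vehicle and 0.986, 2.26 and 1.67 CPM in healthy mice given FGF23, and at 1.18, 0.836, 1.23 and 1.94 CPM and 0.913, 0.701 and 1.04 CPM in the anti-GBM groups, with an interaction of -2.22 (SE 0.49) and an adjusted p of 0.197 (edgeR). Grin2d, a subunit of the NMDA receptor, had -1.61 (SE 0.42). Among circadian clock genes, 7 of 17 interactions were positive with a median of -0.06, the repressor Cry2 having -0.64 (SE 0.18) and Clock 0.43 (SE 0.20). Cell cycle genes were positive in 10 of 22 with a median of -0.04, and acute phase genes in 2 of 7 with a median of -0.38. Genes of the endoplasmic reticulum and amino acid stress response were positive in 11 of 13 (10 of 13 under upper quartile scaling) with a median of 0.30. The cell cycle, acute phase and stress response lists had 0 members at an unadjusted p below 0.05 in edgeR in either direction. B and plasma cell markers were positive in 1 of 4 with a median of -0.31. Of these Cd79a had -2.06 (SE 0.65) and Jchain 1.25 (SE 0.55) (0.74 without NTS14). Both were low genes, with 1 to 21 reads per mouse for Cd79a and 8 to 61 for Jchain.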
